A study of Mus musculus with 16 samples.

Results

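The genes described here are 9 genes of insulin signalling and glucose uptake, taken by symbol from the 19373 genes of the deposited expression table: *Insr*, *Irs1*, *Irs2*, *Pik3r1*, *Akt2*, *Pde3b*, *Slc2a4*, *Slc2a1* and *Pck1*. They were measured by RNA sequencing of gonadal white adipose tissue (gWAT) from 16 male C57Bl6/J mice, 4 in each of 4 groups. *Mboat7* flox/flox control mice, which carry the floxed alleles but no Cre, and *Mboat7* ASKO mice, which carry the same alleles and Cre recombinase driven by the adiponectin promoter, were each kept for 20 weeks on chow or on a high-fat diet, HFD. The age of the mice is not given in the labels. Adiponectin is made by adipocytes, so the Cre leaves *Mboat7* in the other cells of the tissue, and *Mboat7* encodes an acyltransferase that remodels phosphatidylinositol. Each library came from 1 mouse.

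Insulin binds its receptor on the adipocyte, and the receptor phosphorylates the IRS adaptors. These recruit phosphoinositide 3-kinase, whose lipid product activates Akt, and Akt sends vesicles loaded with the glucose transporter GLUT4 to the plasma membrane. In fat tissue the same kinase cascade also turns on the phosphodiesterase PDE3B, which breaks down cyclic AMP and restrains lipolysis, and insulin represses transcription of *Pck1*, whose enzyme supplies the glycerol backbone for re-esterifying fatty acids.

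On HFD, 2 of the 9 genes were lower than on chow by the test, *Pck1* and *Pde3b*. *Pck1*, which encodes cytosolic phosphoenolpyruvate carboxykinase, fell on HFD in control mice, from 375 ± 33.5 FPKM to 36.3 ± 10.4 FPKM (SD, n = 4 each). It also fell in *Mboat7* ASKO mice, from 357 ± 145 FPKM to 59.2 ± 12.5 FPKM (SD, n = 4 each). *Pde3b*, the phosphodiesterase gene, fell in control mice from 73.3 ± 19.4 FPKM to 24.3 ± 7.78 FPKM (SD, n = 4 each). None of the 9 genes passed the test between genotypes on either diet. FPKM divides a gene's fragments by the length of its exons and by the size of the library. Levels of different genes can therefore be set side by side.

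All tests were made with limma on log2(FPKM + 1), over 13148 genes that reached 1 FPKM in 4 or more mice. A gene passed where its Benjamini-Hochberg adjusted p was under 0.05 and its log2 difference exceeded 0.5 in size. All 9 genes were above this filter. In the comparison of HFD with chow, 2 of 9 genes passed in control mice, where 2.91% of all tested genes did and 1.1% of all tested genes were called lower. Among *Mboat7* ASKO mice 1 of 9 passed, where 3.43% of all tested genes did and 1.3% were called lower. In the comparison of *Mboat7* ASKO with control mice, 0 of 9 passed on HFD and 0 of 9 on chow, where 0.00761% of tested genes, a single gene in each comparison, did. At an unadjusted p under 0.05, limma gave 4 of 9 genes for diet in control mice against 14.2% of all genes, and 3 of 9 for diet in *Mboat7* ASKO mice against 15%. For genotype it gave 1 of 9 on HFD against 5.15%, and 0 of 9 on chow against 4.8%. The median log2 difference of HFD from chow over the 9 genes was -0.96 in control mice, beside 0.00 over all tested genes. It was -0.43 in *Mboat7* ASKO mice, beside 0.03.

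No read counts are given. Low values were taken to lie on steps, and the fitted steps put the library of a mouse at 229000 to 400000 fragments. *Mboat7* itself, the gene the Cre acts on, had so few fragments that its level cannot check the labels. On chow it was 2.42, 4.33, 0.902 and 4.99 FPKM in control mice and 0, 1.39, 0 and 2.89 FPKM in *Mboat7* ASKO mice. On HFD it was 0, 0, 2.15 and 1.61 FPKM in control mice and 1.14, 0, 2.60 and 0 FPKM in *Mboat7* ASKO mice. These values stand on 0 to 6.1 fragments, the groups overlapped on both diets, and neither genotype difference passed the test (adjusted p = 0.98 on chow).

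The tissue carried its adipocyte markers, with *Adipoq* between 318 and 1871 FPKM in all 16 mice. The summed adipocyte list ran from 9365 to 15112 FPKM in control mice and 7926 to 24056 FPKM in *Mboat7* ASKO mice on chow. On HFD it ran from 4621 to 10607 FPKM and 6378 to 7187 FPKM. *Fabp4* alone, at 3303 to 22038 FPKM over the 16 mice, made up most of each sum, so the sums mainly follow that gene. All 9 adipocyte markers were tested. On HFD 1 passed as lower and 1 as higher in control mice, where 2.91% of all tested genes passed. In *Mboat7* ASKO mice 3 passed as lower and 1 as higher, where 3.43% of all tested genes passed. By sign alone, 8 of the 9 were below 0 in each genotype (median -0.73 in control and -1.08 in *Mboat7* ASKO mice), beside 49.8% and 48.3% of all tested genes. The marker that passed as higher was *Lep*, from a mean of 154 to 616 FPKM in control mice and from 148 to 427 FPKM in *Mboat7* ASKO mice. The summed level of 12 macrophage markers was 269 to 324 FPKM in control mice and 248 to 309 FPKM in *Mboat7* ASKO mice on chow, and 689 to 1124 FPKM and 878 to 1320 FPKM on HFD. On HFD 7 of the 12 passed as higher in control mice, and 8 of 12 in *Mboat7* ASKO mice. In 2 mice on HFD, 1 of each genotype, 10 genes held over 50% of the FPKM sum (55.2% and 54.2%, against 32.6% to 44.3% in the other 14 mice). Without both, 231 genes rather than 383 passed for diet in control mice, and *Pck1* and *Pde3b* were among them (adjusted p for *Pde3b* = 0.046).

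**Figure D1:**
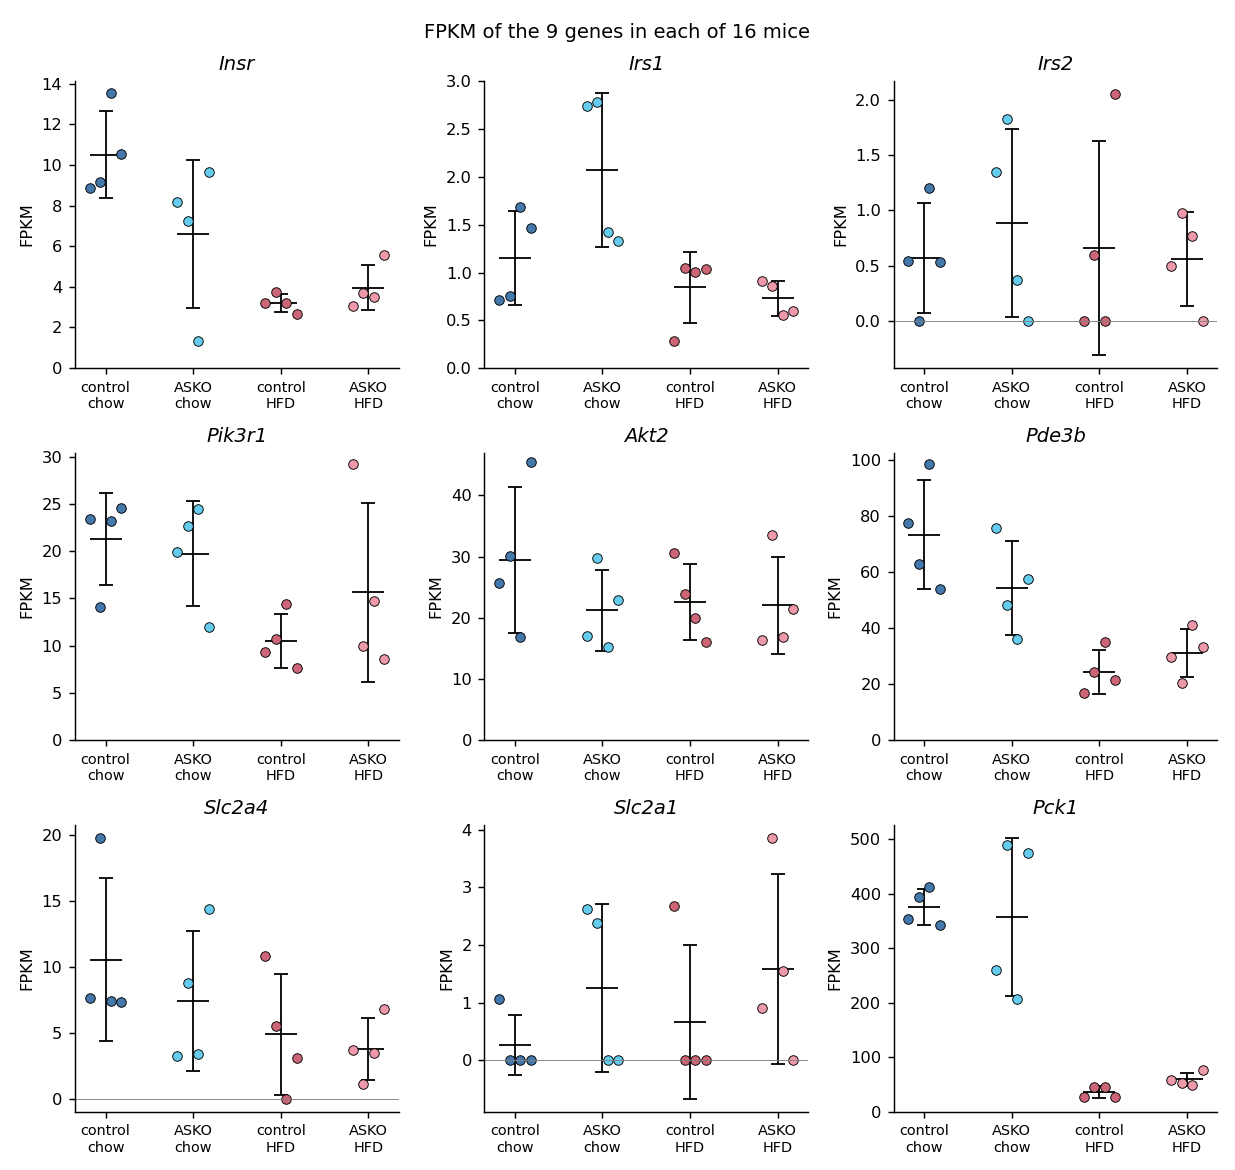
FPKM of each of the 9 genes (vertical axes, starting at or below 0) in each of 16 mice, in groups of 4 along the horizontal axis; points are mice, the horizontal bar is the group mean and the whiskers are its SD. *Pck1* sits at 207 to 488 FPKM in the 8 mice on chow and at 26.9 to 76.9 FPKM in the 8 mice on HFD, whereas the points of *Irs2*, *Slc2a1* and *Akt2* overlap across all 4 groups.

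The 9 genes spanned a wide range of levels. In control mice on chow, *Pck1* was highest at 342 to 413 FPKM, followed by *Pde3b* at 54.1 to 98.5 FPKM, and these ranges met neither each other nor that of the next gene. *Akt2* at 16.8 to 45.4 FPKM and *Pik3r1* at 14.1 to 24.6 FPKM came next, followed by *Slc2a4* at 7.33 to 19.8 FPKM and *Insr* at 8.84 to 13.5 FPKM. Each of these 4 overlapped its neighbour in this order. *Irs1* at 0.713 to 1.69 FPKM, *Irs2* at 0 to 1.20 FPKM and *Slc2a1* at 0 to 1.05 FPKM formed the lowest group, below *Insr* without overlap and overlapping one another. On HFD *Pck1* at 26.9 to 46.2 FPKM overlapped *Pde3b* at 16.6 to 35 FPKM in control mice. In *Mboat7* ASKO mice on HFD the lowest *Pck1* value of 49.0 FPKM stayed above the highest *Pde3b* value of 41.2 FPKM.

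The depth behind these levels differed as widely. With the longest annotated transcript as the length, a value of *Pck1* stood on 23 to 454 fragments, *Pde3b* on 44 to 217, *Akt2* on 18 to 74, *Pik3r1* on 17 to 72 and *Insr* on 3.9 to 42.3. Values of *Slc2a4* stood on 0 to 19.6 fragments, *Irs1* on 1.0 to 8.7, *Irs2* on 0 to 4.0 and *Slc2a1* on 0 to 4.8. At a handful of fragments a single fragment shifts a value by much of its size, so for *Irs1*, *Irs2* and *Slc2a1* only very large differences were detectable at this depth.

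**Figure D2:**
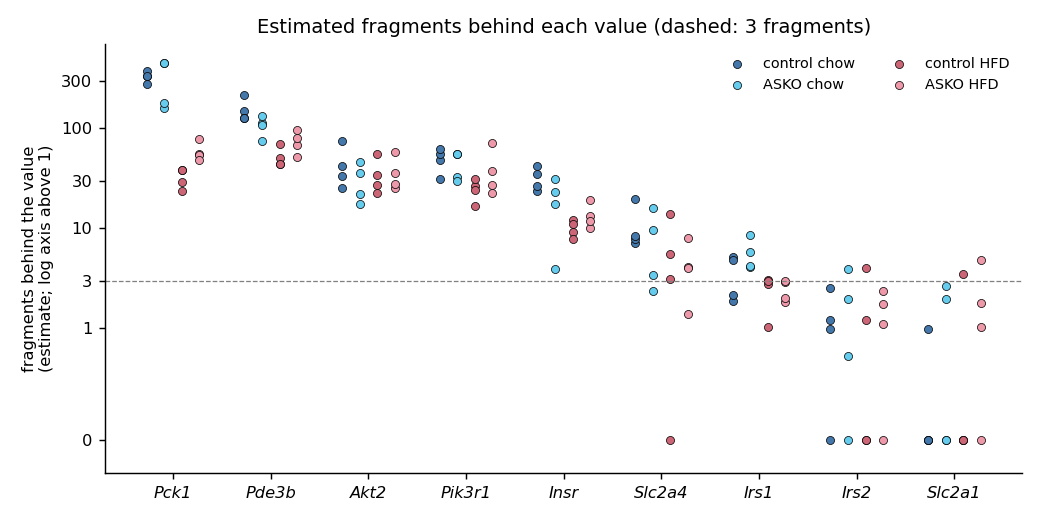
Estimated fragments behind each value (vertical axis, logarithmic above 1 and linear below) for the 9 genes along the horizontal axis, ordered by their median; each point is 1 mouse, coloured by group, and the dashed line marks 3 fragments. *Pck1* and *Pde3b* lie above 20 fragments in every mouse, while no value of *Irs2* or *Slc2a1* exceeds 4.8 fragments.

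*Insr* encodes the insulin receptor (chromosome 8, 3122061 to 3279617, minus strand, mm10 with GENCODE M21 gene models, which also give the coordinates below). Its level was 8.84, 9.15, 13.5 and 10.5 FPKM in control mice on chow and 3.22, 3.75, 3.22 and 2.67 FPKM in control mice on HFD. In *Mboat7* ASKO mice it was 8.20, 7.25, 1.31 and 9.64 FPKM on chow and 3.08, 3.71, 3.51 and 5.56 FPKM on HFD. Every control mouse on HFD was thus below every control mouse on chow, a separation in this direction that 3.89% of all tested genes showed, while in *Mboat7* ASKO mice the ranges overlapped through 1 chow mouse at 1.31 FPKM. The diet difference did not pass in either genotype (log2 difference -1.44 with SE 0.45, adjusted p = 0.116, in control mice, and -0.43 with SE 0.45, adjusted p = 0.742, in *Mboat7* ASKO mice). Leaving that chow mouse, replicate 2 of the *Mboat7* ASKO group, out of the fit lowered the SE to 0.34, and the difference in control mice then passed with the same value and an adjusted p of 0.026. The difference between genotypes on chow was -0.79 (95% confidence interval -1.75 to 0.17). Without the same mouse this difference was -0.29, and that of diet in *Mboat7* ASKO mice was -0.93 (adjusted p = 0.233).

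*Irs1* and *Irs2* encode the main adaptors that carry the signal from the receptor. *Irs1* (chromosome 1, 82233101 to 82291416, minus strand) was at 0.713, 0.756, 1.69 and 1.46 FPKM in control mice on chow and at 2.75, 2.79, 1.43 and 1.33 FPKM in *Mboat7* ASKO mice. On HFD it was at 0.28, 1.05, 1.0 and 1.04 FPKM in control mice and 0.917, 0.854, 0.555 and 0.599 FPKM in *Mboat7* ASKO mice. In *Mboat7* ASKO mice the diets did not overlap, as for 4.42% of all tested genes in this direction, but the difference of -0.80 (SE 0.37) did not pass (adjusted p = 0.321). Exons of *Irs1* overlap those of *Gm9747* on the opposite strand. Whether strand was used in counting is not given in the sources used here, so its fragments are uncertain. *Irs2* (chromosome 8, 10984681 to 11008458, minus strand) ran from 0 to 2.05 FPKM over the 16 mice and was listed at 0 in 5 of them, with at least 1 such mouse in every group. Its log2 differences lay between -0.20 and 0.20 in the 4 comparisons of diet and genotype, each with an SE of 0.46. Changes of less than about 1 on this scale could not have been told from the spread. Larger ones could also have failed the adjusted test, as *Insr* did at -1.44 with an SE of 0.45 in control mice.

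The promoters of both adaptor genes hold the same pair of short sequences side by side, which is shown here because it is a feature the choice of genes did not use. From the RefSeq windows of GRCm38.p6, 40 bases of each are printed on the gene's own strand, with an E-box (CACGTG) and the sequence TGTTTTG in capitals. In *Irs1* the end of the E-box is also the start of TGTTTTG, so the capitals run together. The *Irs1* stretch lies at chr1:82291527-82291566, minus strand, and begins 127 bases before the RefSeq start site of that gene. The *Irs2* stretch lies at chr8:11008946-11008985, minus strand, and begins 56 bases before the RefSeq start site of *Irs2*. The GENCODE model of *Irs2* given above starts further downstream, at 11008458.
Irs1: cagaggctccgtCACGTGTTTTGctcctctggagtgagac
Irs2: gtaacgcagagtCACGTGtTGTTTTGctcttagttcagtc
Searched on both strands in the 250 bases before the start, an E-box was found in 6.02% of 32851 windows, TGTTTTG in 5.56%, and both with first bases within 20 bases of each other in 15 windows, or 0.0457%. This pair was looked for after the windows of these genes had been seen, and a match of letters is not a binding site.

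*Pik3r1*, the gene of the p85-alpha regulatory subunit of phosphoinositide 3-kinase (chromosome 13, 101680563 to 101768217, minus strand), was at 23.4, 14.1, 23.2 and 24.6 FPKM in control mice on chow and at 9.28, 10.7, 14.4 and 7.65 FPKM in control mice on HFD. Its values in *Mboat7* ASKO mice were 19.9, 22.7, 24.5 and 11.9 FPKM on chow and 29.3, 9.98, 14.7 and 8.63 FPKM on HFD. Both diet comparisons overlapped, through 1 chow mouse at 14.1 FPKM in control mice and through a chow mouse at 11.9 FPKM and HFD mice at 14.7 and 29.3 FPKM in *Mboat7* ASKO mice. The difference in control mice was -0.96 (SE 0.39, adjusted p = 0.254) and that in *Mboat7* ASKO mice -0.43 (SE 0.39, adjusted p = 0.691). With single mice left out the latter ranged from -0.76, without the mouse at 29.3 FPKM, to -0.21, without that at 8.63 FPKM.

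*Akt2*, the Akt isoform most tied to insulin-stimulated glucose uptake (chromosome 7, 27591552 to 27640826, plus strand), did not pass in any comparison. Its means were 29.5 ± 11.9 and 21.2 ± 6.61 FPKM in control and *Mboat7* ASKO mice on chow and 22.6 ± 6.24 and 22.0 ± 7.98 FPKM on HFD (SD, n = 4 each). The log2 difference of HFD from chow was -0.32 (95% confidence interval -1.09 to 0.44) in control mice and 0.04 (-0.72 to 0.80) in *Mboat7* ASKO mice, intervals that leave room for a change in either direction. With single mice left out the value in control mice ran from -0.55 to -0.095. For its paralogue *Akt1* the means were 5.05 ± 0.26 FPKM in control mice on chow and 13.5 ± 6.41 FPKM on HFD, and 5.48 ± 5.59 and 17.3 ± 4.23 FPKM in *Mboat7* ASKO mice (SD, n = 4 each), and neither difference passed (adjusted p = 0.334 and 0.065). *Pik3ca*, the catalytic partner of *Pik3r1*, stayed between 2.0 and 9.1 FPKM in all 16 mice.

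*Pde3b* (chromosome 7, 114415281 to 114539251, plus strand) is the phosphodiesterase through which insulin lowers cyclic AMP in adipocytes. It was at 77.7, 63.1, 98.5 and 54.1 FPKM in control mice on chow and 16.6, 24.2, 35 and 21.5 FPKM in control mice on HFD, so that the highest HFD mouse was well under the lowest chow mouse. Such a separation in this direction was shown by 3.89% of all tested genes. The *Mboat7* ASKO mice had 75.7, 48.1, 36 and 57.6 FPKM on chow and 29.7, 20.5, 41.2 and 33.2 FPKM on HFD, and here 1 HFD mouse at 41.2 FPKM was above the lowest chow mouse. *Pde3b* fell by 1.57 on the log2 scale in control mice (SE 0.32, adjusted p = 0.012). The difference in *Mboat7* ASKO mice was -0.78 (SE 0.32, adjusted p = 0.258), and the test of the difference between the genotypes' diet responses gave 0.79 (SE 0.46, adjusted p = 0.823), so a diet response that differs by genotype was not shown. Averaged over both genotypes, a comparison added after the data had been seen, *Pde3b* was lower on HFD by -1.17 (SE 0.23, adjusted p = 0.0035), where 7.53% of all tested genes passed.

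*Slc2a4* encodes GLUT4, the insulin-responsive glucose transporter (chromosome 11, 69942539 to 69948188, minus strand). On chow it was at 7.67, 19.8, 7.39 and 7.33 FPKM in control mice and 3.21, 8.79, 3.40 and 14.4 FPKM in *Mboat7* ASKO mice. On HFD it was at 10.9, 5.53, 0 and 3.12 FPKM in control mice and 3.72, 1.13, 3.5 and 6.85 FPKM in *Mboat7* ASKO mice. The diets overlapped within each genotype and the genotypes on each diet, with a single chow mouse far above its group at 19.8 FPKM and a single HFD mouse listed at 0. Its log2 difference of HFD from chow was -1.33 (95% confidence interval -2.78 to 0.13, adjusted p = 0.411) in control mice and -0.74 (-2.20 to 0.71, adjusted p = 0.695) in *Mboat7* ASKO mice, and its difference between genotypes on HFD was 0.04 (-1.42 to 1.49). Without the control mouse on HFD listed at 0, replicate 2, the difference in control mice was -0.63, and with single mice left out that in *Mboat7* ASKO mice ran from -1.03 to -0.38. The intervals within each genotype hold both no change and a large fall, at 0 to 19.6 fragments per mouse. Averaged over both genotypes, a comparison added after the data had been seen, the difference was -1.03 (95% confidence interval -2.06 to -0.0066). It did not pass (adjusted p = 0.255), so a diet effect on *Slc2a4* was not shown. How far depth or the spread between mice set these intervals was not tested.

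*Slc2a1*, the gene of the basal transporter GLUT1 (chromosome 4, 119108711 to 119137983, plus strand), was listed at 0 in 9 of 16 mice, and its highest value was 3.86 FPKM, in a *Mboat7* ASKO mouse on HFD. The mice above 0 were 1 of 4 controls on chow, 2 of 4 *Mboat7* ASKO mice on chow, 1 of 4 controls on HFD and 3 of 4 *Mboat7* ASKO mice on HFD. Differences between genotypes were 0.65 (SE 0.60) on chow and 0.67 (SE 0.60) on HFD, and neither passed (adjusted p = 0.983 and 0.993). With single mice left out they ran from 0.33 to 0.95 on chow and from 0.29 to 1.14 on HFD. A further transporter gene, *Slc2a3*, which encodes GLUT3, was at 0.7 to 3.1 FPKM in the 4 control mice on chow and listed at 0 in the 4 control mice on HFD, a difference that did not pass (adjusted p = 0.094). Separation of the diets in this direction was seen for 3.89% of all tested genes.

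*Pck1* (chromosome 2, 173153048 to 173159273, plus strand) encodes the enzyme that makes phosphoenolpyruvate from oxaloacetate, the first committed step of glyceroneogenesis in adipocytes. The 250 bases before its RefSeq start site, chr2:173152823-173153072 of GRCm38.p6, plus strand, are shown because this is the member with the largest change. Capitals mark a cyclic AMP response element (TTACGTCA) and a TATA-like sequence (TATTTAA).
Pck1: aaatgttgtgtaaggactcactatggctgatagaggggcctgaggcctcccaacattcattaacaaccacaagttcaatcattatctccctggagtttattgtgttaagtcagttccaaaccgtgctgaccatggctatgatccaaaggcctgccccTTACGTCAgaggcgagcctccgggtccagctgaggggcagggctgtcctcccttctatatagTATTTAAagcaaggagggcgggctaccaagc
The first begins 93 bases and the second 31 bases before the start. Searched on both strands, TTACGTCA was found in 0.448% of 32851 windows of this length, and TATTTAA in 4.18%. Among the windows of 6 of the 9 genes found in the table (*Irs1*, *Irs2*, *Pik3r1*, *Akt2*, *Slc2a1* and *Pck1*), only that of *Pck1* held TTACGTCA. Matches are letters alone, and binding at them was not measured.

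*Pck1* was at 352, 394, 413 and 342 FPKM in control mice on chow and at 26.9, 44.5, 46.2 and 27.7 FPKM in control mice on HFD. In *Mboat7* ASKO mice it was at 259, 488, 207 and 475 FPKM on chow and 59.1, 52.0, 49.0 and 76.9 FPKM on HFD. Every mouse on HFD, of either genotype, was below every mouse on chow. *Pck1* fell by 3.37 on the log2 scale in control mice (SE 0.30, adjusted p = 6.6e-06), a ratio of mean FPKM of 10.3, and by 2.5 in *Mboat7* ASKO mice (SE 0.30, adjusted p = 0.00012), a ratio of 6.03.

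On HFD, all 4 *Mboat7* ASKO mice had more *Pck1* than any control mouse, 49.0 to 76.9 FPKM against 26.9 to 46.2 FPKM, an arrangement in this direction that 1.69% of all tested genes showed. The difference of 0.71 (SE 0.30, 95% confidence interval 0.08 to 1.35) did not pass over all genes (adjusted p = 0.917). On chow the genotypes overlapped, with a difference of -0.16 (-0.80 to 0.47). The test of the interaction gave 0.88 (SE 0.43, adjusted p = 0.796), and in that test 0 of 13148 genes, 0.0%, passed with limma, while 828, or 6.3%, had an unadjusted p under 0.05. The paralogue *Pck2*, the mitochondrial form, was between 0 and 4.2 FPKM in all 16 mice and did not pass in any comparison.

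**Figure D3:**
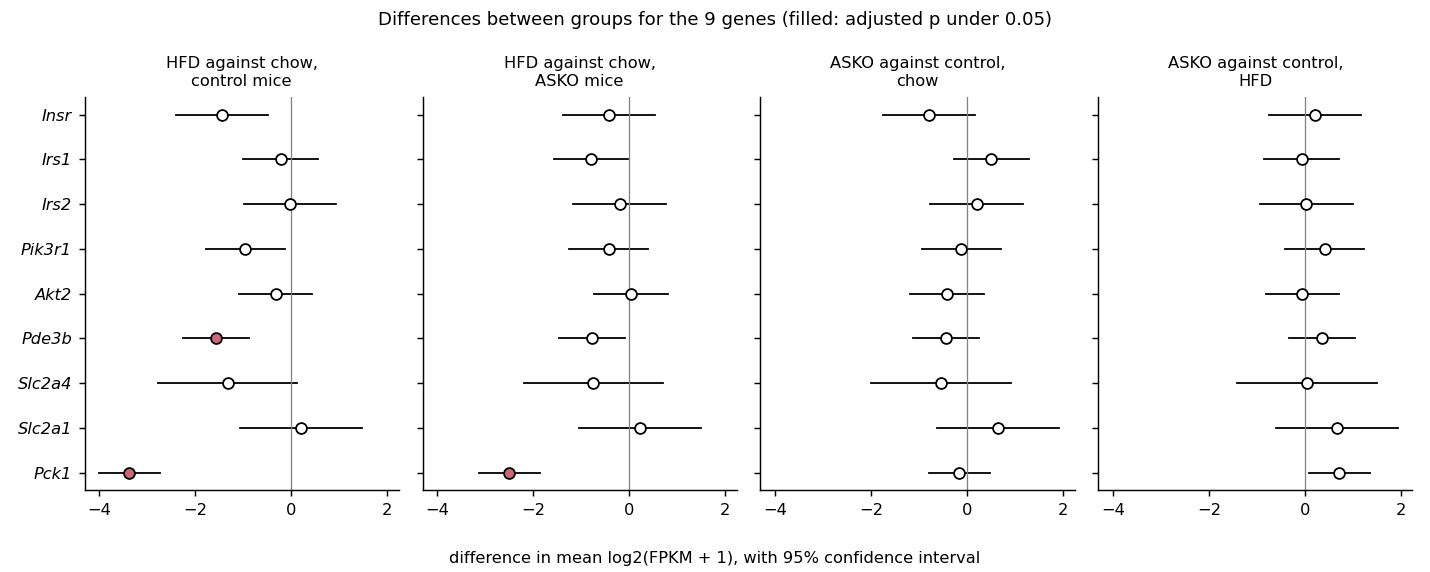
Difference in mean log2(FPKM + 1) (horizontal axes) for each of the 9 genes (rows), as HFD minus chow in the left 2 panels and *Mboat7* ASKO minus control in the right 2; points are estimates, lines are 95% confidence intervals, and filled points passed the test. The 3 filled points are *Pck1* in both diet panels, at -3.37 and -2.5, and *Pde3b* in control mice, at -1.57; scaling each mouse to its adipocyte markers left *Pde3b* at -1.01, not past the test.

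The adipocyte hormone gene *Adipoq* itself fell on HFD, from 1414 ± 364 to 438 ± 72.8 FPKM in control mice and from 1061 ± 308 to 398 ± 59.8 FPKM in *Mboat7* ASKO mice (SD, n = 4 each), alongside the higher macrophage markers given above. In bulk tissue, fewer adipocytes and less RNA per adipocyte cannot be told apart. Expressed per 1000 FPKM of *Adipoq*, *Pck1* was still lower on HFD without overlap: 211 to 357 on chow and 49.98 to 121 on HFD in control mice, and 215 to 398 and 124 to 185 in *Mboat7* ASKO mice. *Pde3b* was not, at 33.7 to 78.7 on chow and 30.8 to 81.0 on HFD in control mice, and 37.4 to 112 and 64.3 to 104 in *Mboat7* ASKO mice. *Insr* behaved like *Pde3b*, at 4.89 to 9.33 and 5.97 to 10.2 in control mice. The log2 difference of *Adipoq* in control mice was -1.67, against a median of -0.73 over the 9 adipocyte markers, so these ratios depend on the marker chosen. On this relative scale *Pck1* was 124 to 185 in *Mboat7* ASKO mice and 49.98 to 121 in control mice on HFD. These are the same *Pck1* values divided by *Adipoq*, whose mean was also lower in *Mboat7* ASKO mice on HFD, so they are no second showing. Differences on this scale were not tested, and no share over all genes is given for it.

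**Figure D4:**
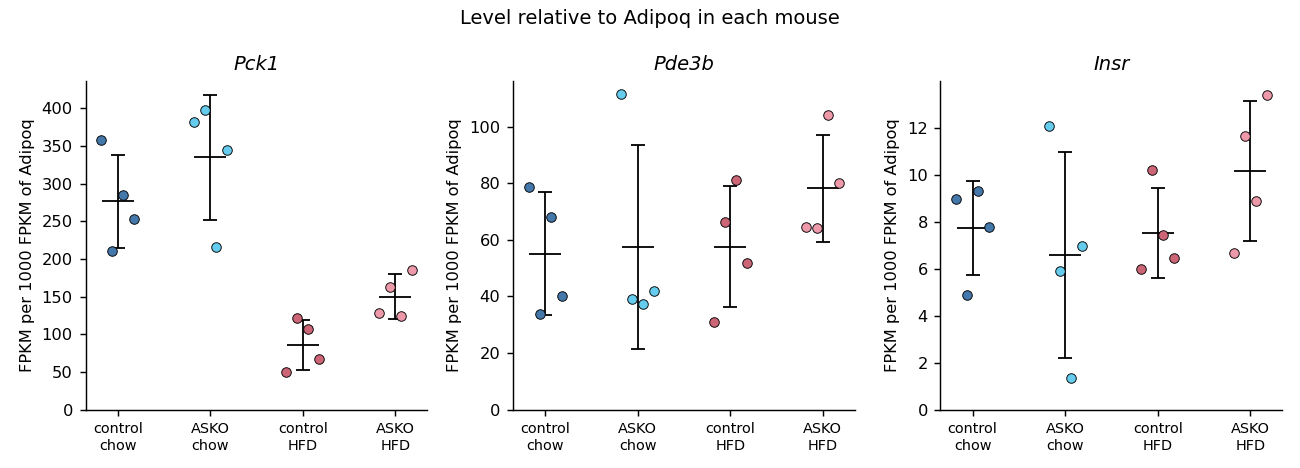
FPKM per 1000 FPKM of *Adipoq* in the same mouse (vertical axes, from 0) for *Pck1*, *Pde3b* and *Insr*, by group; points are mice, bars are means and whiskers are SD (n = 4 each). *Pck1* stays lower on HFD in both genotypes, whereas *Pde3b* and *Insr* overlap between diets.

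When each mouse was instead scaled to the mean of its 9 adipocyte markers, the median of all tested genes moved to 0.37 in the comparison of diet in control mice and to 0.60 in that of *Mboat7* ASKO mice, so values are best read against those shifts. *Pck1* fell by 2.82 in control mice and by 1.65 in *Mboat7* ASKO mice under this scaling and passed in both (-3.18 and -2.24 relative to the shift). *Pde3b* was at -1.01 in control mice and did not pass (adjusted p = 0.181, -1.38 relative to the shift), and at 0.06 in *Mboat7* ASKO mice (-0.54 relative to it). Under the same scaling 521 genes were higher and 57 lower for diet in control mice, against 238 and 145 without it. For *Mboat7* ASKO mice 1035 were higher and 43 lower, against 280 and 171.

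The wider pathway was described from 8 lists with 165 genes, the 9 genes included, of which 160 were in the table and 141 were tested. For diet, 5 of 141 passed in control mice (3.55%, against 2.91% of all genes) and 3 of 141 in *Mboat7* ASKO mice (2.13%, against 3.43%), shares near those of all genes. For genotype and for the interaction, 0 of 141 passed. No gene passed among 12 of the insulin receptor and its substrates, 13 brakes on receptor signalling, 22 of PI3K, Akt and downstream kinases, 22 of GLUT4 vesicle traffic or 6 glucose transporters. For diet, 10 of the 12 receptor and substrate genes were below 0 in control mice (median -0.50) and 8 of 12 in *Mboat7* ASKO mice (median -0.47). Of all tested genes 49.8% and 48.3% were below 0, and the 12 include *Insr*, *Irs1* and *Irs2*. Of the 22 genes of GLUT4 traffic, 11 were above and 11 below 0 in control mice (median 0.01), and 14 above and 8 below in *Mboat7* ASKO mice (median 0.09).

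The calls came from genes of glucose breakdown, glycerol supply and lipolysis. *Hk3*, a hexokinase typical of myeloid cells, was listed at 0 in the 4 control mice on chow and was at 5.6, 2.6, 7.4 and 6.3 FPKM in control mice on HFD, and it rose there (adjusted p = 0.0026). It also rose in *Mboat7* ASKO mice, from 0 to 0.8 FPKM on chow to 2.2 to 9.0 FPKM on HFD (log2 difference 2.13, SE 0.45, adjusted p = 0.012). The summed macrophage markers were also higher on HFD in both genotypes, and their part in this was not tested. *Pygb*, the brain form of glycogen phosphorylase, fell by 1.89 in control mice (36.8 ± 9.04 to 9.74 ± 3.98 FPKM, SD, n = 4 each, adjusted p = 0.021), and *Pdha1*, a subunit of pyruvate dehydrogenase, fell by 1.07 (66.7 ± 5.98 to 32.2 ± 9.42 FPKM, SD, n = 4 each, adjusted p = 0.043). The difference in *Mboat7* ASKO mice was -0.93 for *Pygb* (adjusted p = 0.316) and -0.61 for *Pdha1* (adjusted p = 0.298). *Pnpla2*, which encodes the triglyceride lipase ATGL and is also among the adipocyte markers, fell by 1.54 in *Mboat7* ASKO mice (94.5 ± 17.8 to 33.9 ± 15.6 FPKM, SD, n = 4 each, adjusted p = 0.035) and differed by -0.45 in control mice (adjusted p = 0.688). The remaining calls were *Pck1* and *Pde3b*.

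Among direct partners of the 9 genes, none passed. *Tbc1d4*, the Akt substrate AS160 that holds back GLUT4 vesicles, was at 1.1 to 1.5 FPKM in control mice and at 2.1 to 3.4 FPKM in *Mboat7* ASKO mice on HFD, with no overlap, as for 1.69% of all tested genes in this direction, and a difference of 0.76 (SE 0.44, adjusted p = 0.977). *Grb14*, an adaptor that inhibits the insulin receptor, was at 3.7 to 15.2 FPKM on chow and 0 to 3.1 FPKM on HFD in *Mboat7* ASKO mice, again without overlap, as for 4.42% of all tested genes in this direction (-1.35, SE 0.62, adjusted p = 0.317). *Pik3r2*, the other regulatory subunit, and *Abhd15*, a partner of PDE3B, were listed at 0 in several mice of both diets.

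The genes whose log2 values most resembled those of *Slc2a4* over the 16 mice were *Chn1os1* (Pearson r = 0.81), *Osbpl1a* (0.80), *Gm7901* (0.79), *Ppil3* (0.78) and *Map4k2* (0.77). By deviations from group means they were *Actb* (0.87), *Bcas3* (0.84), *Cbarp* (0.83), *Ighg2b* (0.82) and *Gm7901* (0.80). They were picked as the highest among all tested genes, and in values this sparse they describe the 16 libraries alone.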

How the data were processed

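RNA from gWAT of 16 mice was sequenced as 1 directional mRNA library per mouse. The authors aligned reads to mm10 with STAR and GENCODE gene models and deposited FPKM values for each gene and mouse, made with Cufflinks; the submitters' notes also name Cuffdiff. The GENCODE release, the strand setting and the scaling of the FPKM values are not given in the sources used here. The labels and the study's methods name different sequencers. Of 19373 gene IDs, 99.6% matched GENCODE M21, and 22 symbols turned into dates were restored by ID. Where a symbol had several rows (20 symbols), the one with the largest mean was kept.

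No further scaling was applied to the deposited FPKM values, which were analysed as log2(FPKM + 1), a scale that understates the changes of low genes. Groups were compared with limma 3.58.1 in R 4.3.3, with all 16 mice and 4 groups in one fit, the intensity trend and no covariates, on 13148 genes that reached 1 FPKM in 4 or more mice. Calls needed a Benjamini-Hochberg adjusted p under 0.05 within a comparison and an absolute log2 fold change above 0.5. Comparisons made with the same control or chow mice are not independent of each other. The fit was checked on simulated data. Low values of 1161 coding genes with 1 transcript of at least 1000 bases gave the step worth 1 fragment. At that step, 50.2% to 87.8% of a mouse's low values lay within 0.2 of a whole number, against 40% if spread evenly. The step was chosen to fit these same values, which by itself raises that share, so 40% is not an even comparison. Fragment numbers are therefore estimates, and intervals cover the spread between mice.

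Mice with the same number in the labels' titles, 0 to 3, are different animals. The labels do not say how the mice were housed or processed, and no batch is given. The fit was repeated with a pseudocount of 0.1, no filter, a 5 FPKM filter, upper-quartile, quantile or adipocyte-marker scaling, only the groups compared, array weights, robust estimation, no intensity trend, calls without the fold limit, a block for the replicate number, and each mouse left out.

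The 9 genes, the pathway lists and the marker lists were chosen with earlier results of these data known. Named besides the 9 genes were *Mboat7*, called genes of the lists (up to 5 in each direction per comparison), their direct partners and paralogues, marker genes, and the 5 genes most like *Slc2a4*. Promoter windows are from RefSeq, GRCm38.p6. Tables were made with Python 3.11.15 and pandas 2.3.3, plots with matplotlib 3.10.9.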

Additional observations from a re-analysis of the deposited data

Results flagged for a closer look

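In 48 sets of 4 mice (the FPKM of each of the 9 genes and 3 measures of the library), a mouse stood far from the other 3 in 9 sets by Dixon's ratio. Chance would give about 2.4 in independent sets with a normal spread, but these sets are neither. Library measures of a mouse are linked, and in *Slc2a1* groups with the other 3 mice at 0 any value above 0 is flagged. The 9 sets are therefore not read as an excess over chance. Control mouse 1 on chow stood apart in 4 of the 9 sets. It had the highest *Slc2a4* of the study at 19.8 FPKM, against 7.33 to 7.67 FPKM in the other 3, and the lowest *Pik3r1* of its group at 14.1 FPKM, against 23.2 to 24.6 FPKM. Its FPKM sum was 772406, against 611890 to 636209, and 41.9% of that sum was in 10 genes, against 35.4% to 35.8%. Control mouse 0 on HFD had the lowest *Irs1* at 0.28 FPKM, against 1.0 to 1.05 FPKM, the only *Slc2a1* above 0 in its group at 2.67 FPKM, and the most estimated fragments of its group, 400000 against 303000 to 315000. Control mouse 0 on chow had the only *Slc2a1* above 0 in its group, 1.05 FPKM. In *Mboat7* ASKO mouse 3 on HFD, 54.2% of the FPKM sum was in 10 genes, against 38.7% to 39.2%. The *Irs1* and *Slc2a1* values stand on about 1 to 3.5 fragments.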

How the results depend on the processing

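*Pck1* passed for diet in both genotypes under every alternative run. *Pde3b* passed in control mice under all but scaling to the adipocyte markers (-1.01, adjusted p = 0.181), with adjusted p up to 0.050 when single mice were left out, and in *Mboat7* ASKO mice alone it passed under none. Diet averaged over both genotypes, which pools control and *Mboat7* ASKO mice and was added after seeing the data, gave -1.17 and passed. Calls for diet in control mice (383) came to 578 with scaling to the adipocyte markers, 255 with only the groups compared, 231 without both mice with over 50% of the FPKM sum in 10 genes, 990 with diet averaged over genotypes, and 255 to 421 when single mice were left out, lowest without control mouse 1 on chow. For diet in *Mboat7* ASKO mice (451) they were 1078, 265, 311 and 990, and 265 to 493 without single mice, lowest without *Mboat7* ASKO mouse 0 on HFD. For genotype on HFD (1) the count was 2 with no filter and 0 with the filter of 5 FPKM, quantile normalization, only the groups compared, the replicate block, without both of those mice and averaged over diets. For genotype on chow (1) it was 2 with no filter and without both mice, and 0 with the filter of 5 FPKM, upper-quartile scaling, adipocyte scaling, array weights, robust estimation, the replicate block and averaged over diets. Single mice left out gave 0 to 3 on HFD and 0 to 4 on chow. For the interaction (0) the count was 1 without both mice and 0 to 1 without single mice. Leaving out both mice and averaging were chosen after seeing the data, and causes were not tested. Mice of the same number did not deviate together (r from -0.19 to 0.15 in 24 pairs, 1 over 0.1), and with the number as a block 361 genes were called for diet in control mice and 390 genes in *Mboat7* ASKO mice; no call on the 9 genes changed under it.

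Differences that changed sign had not passed in either form. Under adipocyte scaling these were, for diet in control mice, *Irs1* 0.0691, *Irs2* 0.18 and *Akt2* 0.22, for diet in *Mboat7* ASKO mice *Insr* 0.26, *Irs2* 0.0937, *Pik3r1* 0.38 and *Pde3b* 0.0609, and for genotype on HFD *Akt2* 0.12. Averaged over diets, genotype gave *Insr* -0.29, *Irs1* 0.22, *Slc2a4* -0.25 and *Pde3b* -0.0446, against their signs on HFD, and *Pik3r1* 0.15 and *Pck1* 0.27, against their signs on chow, and averaged over genotypes diet gave *Akt2* -0.14. Quantile normalization gave *Irs2* -0.10 and *Slc2a4* -0.00038 for genotype on HFD and *Slc2a1* -0.0589 for the interaction; array weights gave *Irs2* -0.0185 for genotype on HFD and *Akt2* -0.0880 for diet in *Mboat7* ASKO mice; a pseudocount of 0.1 gave *Irs2* 0.15 for the interaction. Without both mice, *Irs1* was 0.0265 and *Slc2a4* -0.0366 for genotype on HFD, and *Irs2* was 0.000948 for diet in *Mboat7* ASKO mice and 0.0615 for the interaction. Single mice left out gave, for genotype on HFD, *Irs2* -0.16 to 0.37, *Akt2* -0.27 to 0.10 and *Slc2a4* -0.65 to 0.54, and for genotype on chow *Irs2* -0.0333 to 0.47, *Pik3r1* -0.30 to 0.0930 and *Pck1* -0.35 to 0.0655. They gave *Irs2* -0.37 to 0.17 and *Slc2a1* -0.26 to 0.47 for diet in control mice, *Irs2* -0.46 to 0.0354, *Akt2* -0.17 to 0.21 and *Slc2a1* -0.15 to 0.62 for diet in *Mboat7* ASKO mice, and *Irs2* -0.44 to 0.17, *Slc2a4* -0.11 to 1.08 and *Slc2a1* -0.35 to 0.49 for the interaction.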
